A study of Mus musculus with 20 samples.

Results

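Lipoxygenase and leukotriene genes were examined in the mouse uterus on the evening of day 3.5 of pregnancy. The set holds 8 named genes of the 45777 genes in the deposited table. They are the lipoxygenases Alox15, Alox12 and Alox5, the 5-lipoxygenase activating protein Alox5ap, the synthesis enzymes Lta4h and Ltc4s, and the receptors Cysltr1 and Ltb4r1. The set was given as a list of names. All 8 were above 0 TPM (transcript abundance per length, scaled to the same total in each library) in all 20 libraries and entered the test.

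All mice were mated wild-type B6D2F1 females 8 to 12 weeks of age, with 5 mice in each of 4 groups and 1 uterine horn taken per mouse at 18:00. The control group received no RU486. The IF group (implantation failure) received RU486, an antagonist of the progesterone and glucocorticoid receptors, at 3 mg/kg under the skin on day 3.5. The PBMC group had the same RU486 dose, after 50000 peripheral blood mononuclear cells of non-pregnant mice had been placed in each horn on day 1.5. The PBMC-hCG group differed from it in that the cells had been cultured with 5 IU/mL human chorionic gonadotropin. No library analysed here came from a mouse with transferred cells and no RU486, so the effect of the cells alone cannot be told apart from their effect after RU486. The control and IF mice had no injection into the uterus, and no library analysed here came from mice given medium without cells. Differences between either cell group and IF therefore cannot tell the cells apart from the injection and its medium. The question was how RU486 altered the uterus before implantation, and whether transferred cells altered it in turn.

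Lipoxygenases add oxygen to arachidonic acid, which phospholipases release from membranes. Alox5, helped by the membrane protein that Alox5ap encodes, makes leukotriene A4. Lta4h turns this into leukotriene B4, an attractant of neutrophils that acts on the receptor Ltb4r1, and Ltc4s joins it to glutathione to give the cysteinyl leukotrienes, which act on Cysltr1 and Cysltr2 and make vessels leaky. Alox15 and Alox12 make other oxidised fatty acids. In the mouse uterus, Alox15 is known as a progesterone-regulated gene of the epithelium before implantation.

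Promoter sequences of Ltc4s and Alox12 are shown because these were the only members that passed the test in any comparison. The capitals mark half-sites of hormone receptors, searched on both strands as AGAACA for the progesterone and glucocorticoid receptors and as GGTCA for the estrogen receptor, which do not overlap in these windows. Both genes lie on the minus strand of chromosome 11. The sequences run from 250 to 85 bases before the start in each gene's promoter record (166 bases, RefSeq, GRCm38.p6). For Ltc4s this start is the gene bound given below. For Alox12 the gene bound given below, 70255380, lies slightly nearer to the window than this start.
Ltc4s, chr11:50238617-50238782: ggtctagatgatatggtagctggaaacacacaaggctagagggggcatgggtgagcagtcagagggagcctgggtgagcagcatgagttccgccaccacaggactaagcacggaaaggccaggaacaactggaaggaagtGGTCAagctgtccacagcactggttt
Alox12, chr11:70255455-70255620: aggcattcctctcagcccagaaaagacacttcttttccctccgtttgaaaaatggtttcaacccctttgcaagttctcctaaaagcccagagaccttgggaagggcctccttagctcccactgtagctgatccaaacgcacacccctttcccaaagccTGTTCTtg
The Ltc4s window held 1 GGTCA, starting 110 bases before the start, and 0 AGAACA. The Alox12 window held 1 AGAACA in reverse orientation, which reads TGTTCT on the strand shown and begins 92 bases before the start, and 0 GGTCA. Of 32851 promoter windows of this length, 11.2% held AGAACA and 24.9% held GGTCA, and a match is a description of the letters only. Promoters of 5 of the 8 members were matched, and Alox15, Alox5ap and Cysltr1 were not.

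TPM totals of the libraries lay between 999989 and 999999, so depth is unknown, and between 22702 and 24097 genes were above 0. Log2 values of mice of the same group correlated at 0.961 to 0.992, and no sequencing batch is named. Epithelial, stromal and smooth muscle markers were above 0 in every library, as the labelled tissue requires. Of the white cell lists, all 9 macrophage and monocyte markers and all 9 mast cell markers were above 0 in every library, 5 of 9 eosinophil markers (Siglecf and Ccr3 among them, while Prg3 was at 0 throughout) and 5 of 8 neutrophil markers. Of the platelet markers, Pf4 reached 13.0 to 28.03 TPM while Gp9 was at 0 in 16 libraries. In whole uterus, fewer cells of a type and less RNA per cell cannot be told apart.

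The members spanned a wide range of levels per length. Averaged over 20 mice, Alox15 had 161 TPM, Lta4h 89.2 TPM and Alox5ap 56.3 TPM. Ltc4s followed with 11.3 TPM, Alox5 with 5.71 TPM, Alox12 with 5.34 TPM, Cysltr1 with 3.49 TPM and Ltb4r1 with 2.65 TPM. The enzyme Alox5 was therefore listed at a far lower level than the partner protein Alox5ap in each of the 20 mice.

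**Figure D1:**
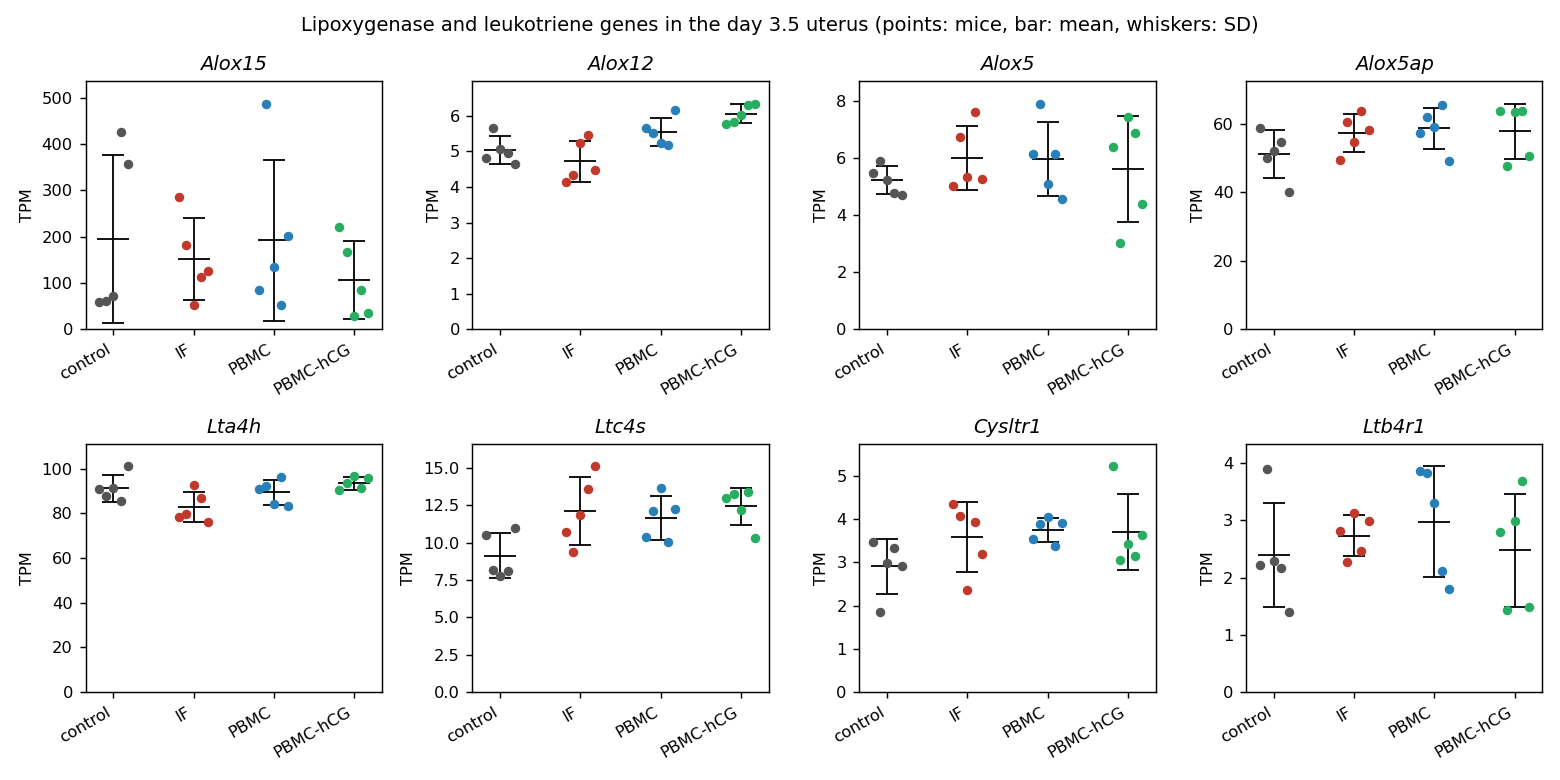
TPM of each of the 8 genes (vertical axes, linear and starting at 0) in the 4 groups (horizontal axes). Points are mice, the middle bar is the mean and the whiskers are the SD (n = 5). Alox15 varied from 27.6 to 487 TPM with no separation of the groups, whereas Alox12 was higher in all 5 PBMC-hCG mice than in any IF or control mouse.

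Few members differed between groups, and by small amounts. A difference was called where the adjusted p of limma's test on log2(TPM + 0.1), corrected by Benjamini-Hochberg over 18706 genes, was under 0.05. Between IF and control, 1 of 8 members was called (Ltc4s, higher), where 21.9% of all tested genes were. PBMC-hCG against IF gave 1 of 8 (Alox12, higher; background 13.6%), and PBMC-hCG against control gave 2 of 8 (both of these, higher; background 31.8%). PBMC against control called 0 of 8 with limma (background 19.5%), with 1 of 8 at an unadjusted p under 0.05 (Ltc4s; background 31.6%). PBMC against IF called 0 of 8 (background 0%), with 1 of 8 at an unadjusted p under 0.05 (Alox12; background 6.79%). PBMC-hCG against PBMC called 0 of 8 (background 0.0107%), with 0 of 8 at an unadjusted p under 0.05 (background 16.2%). Leaving out 1 mouse moved the background of PBMC-hCG against IF from 13.6% to between 0% and 27.1%, so that count rests on which mice were fitted. In none of the 6 comparisons was the share of members called larger than the share of all genes. The comparisons share the IF, PBMC or control mice.

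The study's own criteria asked for a 2-fold change with an unadjusted p under 0.05, in an exact test on read counts. With these criteria applied here to limma's test on log2(TPM + 0.1), none of the 8 members met them in any comparison. Over all tested genes, IF against control had 4.03% that met them, PBMC against IF 0.438% and PBMC-hCG against IF 2.31%. PBMC-hCG against PBMC had 0.893%, PBMC against control 3.34% and PBMC-hCG against control 4.74%. The median log2 difference of the members between IF and control was 0.18, beside 0.02 for all tested genes. It was 0.08 beside 0.02 for PBMC against IF and 0.03 beside 0.05 for PBMC-hCG against IF. It was -0.03 beside 0.02 for PBMC-hCG against PBMC, 0.19 beside 0.05 for PBMC against control and 0.11 beside 0.08 for PBMC-hCG against control.

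Alox15 (12/15-lipoxygenase, chromosome 11, 70344147 to 70390538, GRCm38) varied widely between mice of the same group. The 5 control mice had 59.4, 60.3, 72.2, 426 and 357 TPM. The IF mice had 286, 181, 52.6, 112 and 125 TPM, and the PBMC mice had 84.4, 487, 134, 53.2 and 201 TPM. The PBMC-hCG mice had 219.9, 166, 27.6, 84.3 and 36.1 TPM.

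Every Alox15 group thus held both high and low mice, and all groups overlapped. The control mean of 195 ± 181 TPM (SD, n = 5) rested on 2 mice. The means were 151 ± 88.2 TPM in the IF group, 192 ± 174 TPM in the PBMC group and 107 ± 83.8 TPM in the PBMC-hCG group. On the log2 scale Alox15 differed by -0.01 between IF and control, with a 95% interval from -1.52 to 1.50 (adjusted p = 0.995, limma). The interval includes changes of 2-fold in either direction. PBMC-hCG against IF gave a log2 difference of -0.73 (SE 0.72, adjusted p = 0.493, limma), and PBMC against IF gave 0.13 (SE 0.72, adjusted p = 0.981).

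The within-group SD of Alox15 was 1.23 on the log2 scale, where the median tested gene had 0.227. It ranked 85 of 18706 tested genes. Among the 3186 genes with a mean of at least 50 TPM, only 15 had a larger SD. Lta4h lay at the other end, with an SD of 0.0892 that was larger than that of 7.29% of tested genes.

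**Figure D2:**
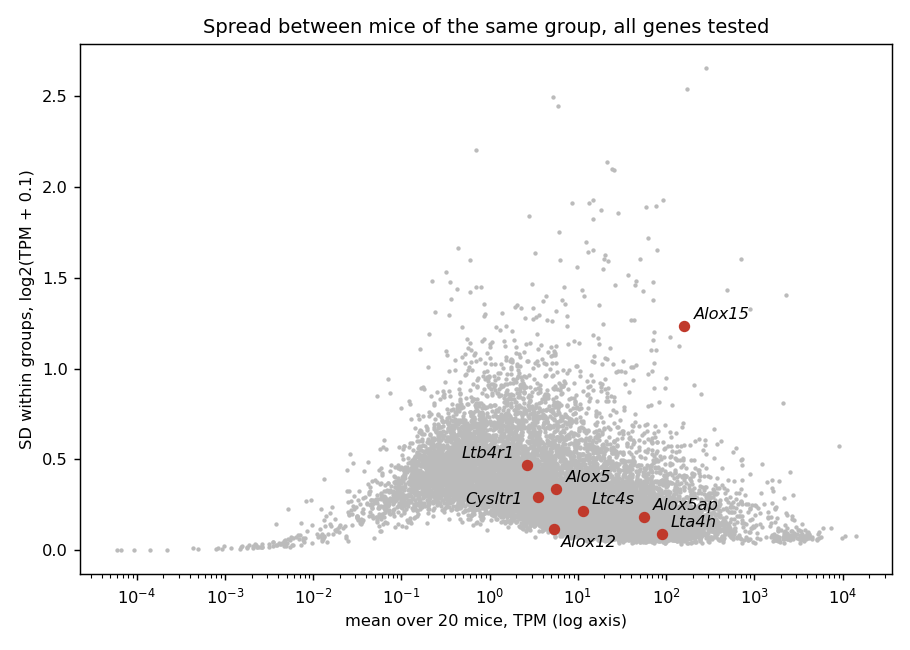
Within-group SD of log2(TPM + 0.1) (vertical axis) against mean TPM over 20 mice (horizontal axis, log scale) for all tested genes in grey and the 8 members in red. Alox15 stands at 1.23, above most genes of similar level, and Alox12 (0.116) and Lta4h (0.0892) lie near the lower edge.

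Alox12, the platelet-type 12-lipoxygenase (chromosome 11, 70241457 to 70255380), was the one member in which groups did not overlap. The PBMC-hCG mice had 5.78, 5.83, 6.04, 6.32 and 6.35 TPM. The IF mice had 4.15, 4.33, 5.23, 5.45 and 4.49 TPM and the control mice 4.82, 5.67, 5.08, 4.96 and 4.66 TPM. The PBMC mice lay between, with 5.66, 5.51, 5.24, 5.18 and 6.15 TPM.

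Each PBMC-hCG mouse thus exceeded every IF and every control mouse in Alox12, a lack of overlap in this direction that 5.05% of tested genes showed against IF and 13.2% against control. Alox12 was 1.28-fold higher in PBMC-hCG than in IF (log2 0.36, SE 0.09, adjusted p = 0.0292, limma) and 1.20-fold higher than in control (log2 0.26, SE 0.09, adjusted p = 0.0351). PBMC differed from IF by 0.23 on the log2 scale and did not pass adjustment (adjusted p = 0.701, limma). PBMC-hCG against PBMC gave 0.13 with a 95% interval from -0.07 to 0.32. In order of means, PBMC-hCG (6.06 ± 0.264 TPM) was followed by PBMC (5.55 ± 0.391), control (5.04 ± 0.385) and IF (4.73 ± 0.576), and no pair of neighbours in this order passed the test.

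The call of Alox12 against IF was lost without any one of IF replicates 2, 4 and 5 or PBMC-hCG replicates 2 to 5, with adjusted p from 0.0582 to 0.0992. The log2 difference in those fits was 0.33 to 0.41, beside 0.36 with all mice, and only 0 to 34 of the 18706 genes were called there, against 2544 with all mice. It was also lost after quantile normalization (log2 0.26, adjusted p = 0.0788). The call against control was lost without any one of control replicates 1, 3, 4 and 5 or PBMC-hCG replicates 3 to 5, with adjusted p from 0.0563 to 0.0838. It was lost as well after quantile normalization (log2 0.17, adjusted p = 0.194), after median-of-ratios scaling (0.19, adjusted p = 0.141) and with only the 2 groups fitted (adjusted p = 0.05003).

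The 6 platelet markers summed to 17.0 to 26.6 TPM in PBMC-hCG, 17.2 to 33.7 TPM in IF and 21.5 to 29.6 TPM in control, of which Pf4 made up 75.4% to 88.3%. In the same order, Pf4 averaged 16.8, 22.9 and 23.3 TPM and Gp1bb 0.468, 0.771 and 0.451 TPM. The platelet integrin Itga2b averaged 3.68, 3.56 and 3.42 TPM. Of the 3 platelet markers tested, 1 had a log2 difference above 0 between PBMC-hCG and IF, with a median of -0.42. The part of platelets in the Alox12 values was not tested. The 5 epithelial markers, all above 0 in each library, summed to 859 to 1139 TPM in PBMC-hCG, 805 to 1044 TPM in PBMC, 722 to 931 TPM in IF and 485 to 859 TPM in control, and their part in the result was not tested.

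Alox5, the first enzyme of leukotriene synthesis (chromosome 6, 116410071 to 116461178), had group means between 5.22 and 6.001 TPM. The control mice had 5.47, 5.91, 5.24, 4.78 and 4.72 TPM, and the IF mice 5.03, 6.76, 5.34, 7.61 and 5.26 TPM. In the PBMC group Alox5 had 6.16, 7.92, 5.10, 6.16 and 4.55 TPM, and in the PBMC-hCG group 6.39, 3.03, 7.43, 6.87 and 4.38 TPM. The PBMC-hCG group was the most scattered, and replicate 2 of it had the lowest Alox5 value of the 20 mice.

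The same mouse had the lowest sum of eosinophil markers (9.90 TPM, against 15.7 to 44.0 TPM in the other 19 mice) and of neutrophil markers (63.0 TPM, against 75.9 to 361 TPM), and the highest macrophage sum (1848 TPM). The neutrophil sum was 77.9% to 95.7% Retnlg in the 20 mice, and in this mouse Retnlg had 50.8 TPM, the lowest value, whereas Ly6g had 1.26 TPM, the highest. Its S100a8 (2.53 TPM), S100a9 (2.67 TPM) and Cxcr2 (0.140 TPM) were the lowest of the PBMC-hCG group. They lay above the control means of 2.34, 1.86 and 0.0741 TPM. Its Csf3r had 5.01 TPM, above the PBMC-hCG mean of 4.67 TPM. PBMC-hCG replicate 3 had the highest eosinophil sum, 44.0 TPM, and the highest neutrophil sum, 361 TPM, with Alox5 at 7.43 TPM. The part of these cells in the Alox5 values was not tested. Between IF and control Alox5 differed by 0.18 on the log2 scale (95% interval -0.25 to 0.61, adjusted p = 0.585, limma).

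Alox5ap encodes the protein that presents arachidonic acid to Alox5 (chromosome 5, 149265004 to 149288153). It had 58.9, 50.2, 52.0, 54.8 and 40.2 TPM in the control mice and 49.6, 60.7, 54.8, 63.7 and 58.2 TPM in the IF mice. The PBMC mice had 57.4, 62.0, 59.3, 65.5 and 49.3 TPM, and the PBMC-hCG mice 63.9, 47.8, 63.5, 63.9 and 50.6 TPM. The groups overlapped in each comparison. The log2 differences from control were 0.17 in IF, 0.20 in PBMC and 0.18 in PBMC-hCG, each with an interval that included 0 (adjusted p of 0.292, 0.216 and 0.226, limma).

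Downstream of leukotriene A4, Lta4h (leukotriene A4 hydrolase, chromosome 10, 93453396 to 93484896) was the steadiest member. The control mice had 90.8, 87.7, 91.2, 85.3 and 101 TPM and the IF mice 78.5, 79.9, 92.7, 86.8 and 76.3 TPM. The PBMC mice had 90.9, 92.3, 84.3, 96.1 and 83.1 TPM, and the PBMC-hCG mice 90.2, 93.4, 96.6, 91.2 and 95.9 TPM. In 3 of the IF mice Lta4h lay below every control mouse, while IF replicates 3 and 4 lay within the control range.

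Lta4h was 0.14 lower on the log2 scale in IF than in control (SE 0.06, adjusted p = 0.0956, limma) and 0.18 higher in PBMC-hCG than in IF (SE 0.06, adjusted p = 0.0509). Neither passed adjustment, and PBMC-hCG against control gave 0.04 (95% interval -0.09 to 0.16), a sign that turned after median-of-ratios scaling (-0.040). Without IF replicate 3 both passed, with adjusted p of 0.0292 and 0.0143, and without PBMC-hCG replicate 1 the second passed with 0.0405. IF against control also passed after quantile normalization (0.0482) and median-of-ratios scaling (0.0293), and PBMC-hCG against IF with a pseudocount of 1 (0.0483), with a mean of at least 1 TPM (0.0486) and after quantile normalization (0.0288).

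Ltc4s, leukotriene C4 synthase (chromosome 11, 50236461 to 50238532), was higher after RU486. The control mice had 10.5, 8.15, 7.78, 8.13 and 11.0 TPM, and the IF mice 10.7, 9.36, 11.8, 13.6 and 15.1 TPM. The PBMC mice had 10.4, 12.1, 13.6, 10.04 and 12.2 TPM, and the PBMC-hCG mice 13.0, 13.3, 12.2, 13.4 and 10.3 TPM. Control replicates 1 and 5 reached into the range of the other groups, so no comparison was free of overlap, and 3 of 5 IF mice lay above all control mice.

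The mean of Ltc4s was 9.11 ± 1.51 TPM in control, 12.1 ± 2.27 TPM in IF, 11.7 ± 1.48 TPM in PBMC and 12.4 ± 1.26 TPM in PBMC-hCG. IF was 1.32-fold above control (log2 0.40, SE 0.13, adjusted p = 0.0362, limma) and PBMC-hCG was 1.37-fold above control (log2 0.45, SE 0.13, adjusted p = 0.0152). PBMC against control gave 0.36 on the log2 scale and missed the threshold (adjusted p = 0.0665, limma). Among the 3 groups that received RU486 no Ltc4s difference was called, with log2 differences of -0.04 for PBMC against IF (95% interval -0.32 to 0.24), 0.05 for PBMC-hCG against IF (-0.23 to 0.33) and 0.09 for PBMC-hCG against PBMC (-0.19 to 0.37).

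The Ltc4s call between IF and control was lost without any one of control replicates 2, 3 and 4 or IF replicates 3, 4 and 5, with adjusted p from 0.0551 to 0.106, and it was 0.0659 after median-of-ratios scaling, 0.0527 without the filter on low values and 0.108 with only the 2 groups fitted. The call of PBMC-hCG against control was kept without each mouse in turn (adjusted p at most 0.0427) and was 0.0511 after median-of-ratios scaling. PBMC against control passed without control replicate 1 (0.0495) or 5 (0.0382). Mast cells are a known source of this enzyme, and the 9 mast cell markers summed to 142 to 319 TPM in control, 126 to 245 TPM in IF, 188 to 233 TPM in PBMC and 193 to 228 TPM in PBMC-hCG. Hdc made up 33.2% to 71.7% of that sum and averaged 149.9 TPM in control and 80.6 TPM in IF. Of the 9 markers, 2 had a log2 difference above 0 between IF and control, with a median of -0.29, and 0 were called. Mcpt4 averaged 22.1 TPM in control and 15.1 TPM in IF, and Cma1 22.0 and 17.5 TPM. Kit averaged 23.7 and 23.8 TPM and Tpsab1 1.24 and 1.40 TPM. The epithelial sums given for Alox12 had medians of 587 TPM in control, 751 TPM in IF, 869 TPM in PBMC and 1024 TPM in PBMC-hCG. The Ltc4s mean was lower in PBMC than in IF. Control replicate 5 had the lowest epithelial sum of the control mice, 485 TPM, and their highest Ltc4s, 11.0 TPM. The part of either cell type in the Ltc4s values was not tested.

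**Figure D3:**
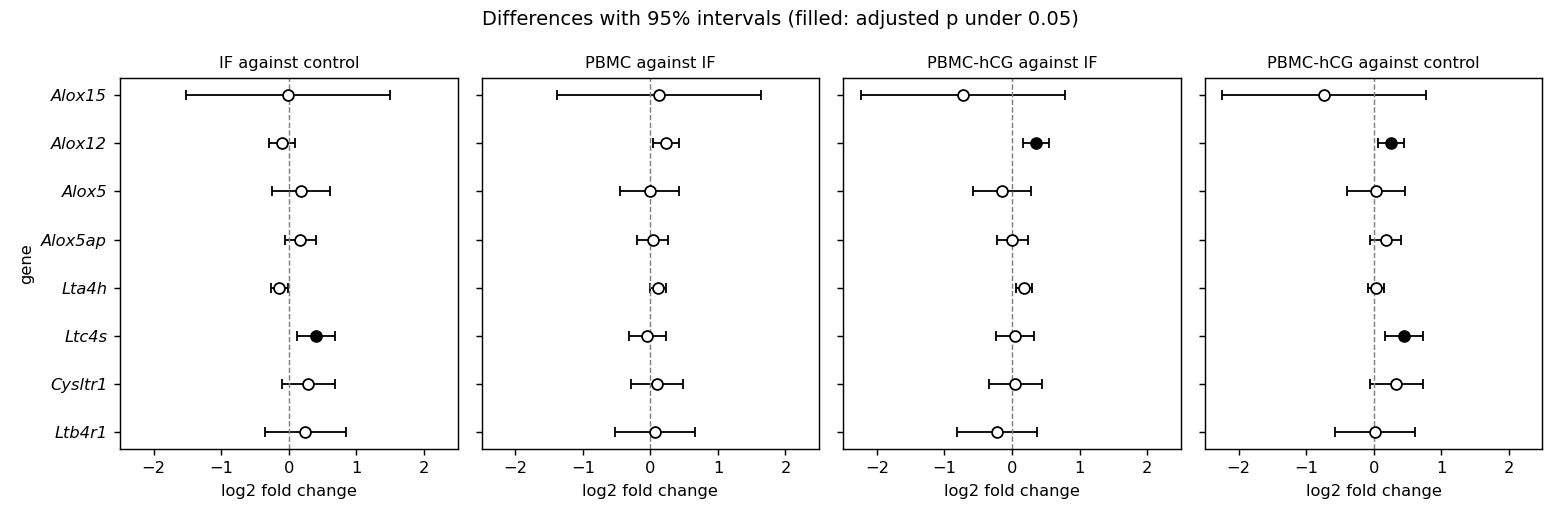
Log2 differences of the 8 genes (horizontal axis) with 95% intervals from limma in 4 comparisons. Filled points passed adjustment, which were Ltc4s between IF and control, Alox12 between PBMC-hCG and IF, and both between PBMC-hCG and control. The interval of Alox15 between IF and control runs from -1.52 to 1.50.

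Cysltr1 is a receptor for cysteinyl leukotrienes (chromosome X, 106576509 to 106603679). The control mice had 3.46, 1.84, 2.997, 3.34 and 2.93 TPM, and the IF mice 4.36, 4.07, 2.35, 3.93 and 3.20 TPM. In the PBMC group Cysltr1 had 3.55, 3.90, 4.04, 3.38 and 3.91 TPM, and the PBMC-hCG mice 5.23, 3.06, 3.42, 3.15 and 3.64 TPM. Control replicate 2 was the lowest of the 20 mice. Cysltr1 differed from control by 0.29 in IF, 0.38 in PBMC and 0.34 in PBMC-hCG on the log2 scale, and none passed (adjusted p of 0.299, 0.166 and 0.176, limma).

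Ltb4r1 is the high-affinity receptor of leukotriene B4 (chromosome 14, 55765962 to 55768492) and was the lowest member. The control mice had 2.22, 3.90, 2.29, 2.17 and 1.40 TPM, and the IF mice 2.82, 2.28, 3.12, 2.46 and 2.99 TPM. The PBMC mice had 3.86, 3.83, 3.30, 2.11 and 1.80 TPM, and the PBMC-hCG mice 2.79, 1.44, 2.98, 3.69 and 1.49 TPM. High and low mice occurred in each group except IF, where the range was narrow. The log2 difference between IF and control was 0.25 (95% interval -0.35 to 0.84, adjusted p = 0.592, limma).

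Of 39 further genes of the pathway, 30 were tested. Between IF and control 9 of the 30 passed adjustment, 7 higher and 2 lower, beside 13.4% and 8.53% of all genes. The median log2 difference of the 30 genes was -0.11, beside 0.02 for all tested genes. The 9 genes below the filter, among them the lipoxygenases Alox8, Alox12b and Aloxe3 and the second leukotriene B4 receptor Ltb4r2, reached at most 0.556 TPM in any mouse.

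The second receptor for cysteinyl leukotrienes, Cysltr2, was higher in all 3 groups given RU486. The control mice had 1.14, 1.28, 1.21, 0.935 and 1.03 TPM, and the IF mice 2.81, 2.43, 3.95, 2.71 and 2.80 TPM. In the PBMC group the values were 2.37, 2.91, 2.42, 2.62 and 1.93 TPM, and the PBMC-hCG mice 2.53, 2.89, 2.97, 2.87 and 2.46 TPM. Every mouse given RU486 lay above every control mouse in Cysltr2, as in 4.31% of tested genes. Cysltr2 was 2.48-fold higher in IF than in control (log2 1.31, SE 0.14, adjusted p = 2.37e-06, limma), 2.09-fold higher in PBMC and 2.34-fold higher in PBMC-hCG.

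Of 4 peptidases that trim leukotriene C4 and its products, 1 was called higher and 1 lower between IF and control. Not called were the transferase Ggt1, with means of 1.09 TPM in control and 0.429 TPM in IF, and the dipeptidase Dpep2, with 1.14 and 1.47 TPM. Dpep1, a dipeptidase that makes leukotriene E4, had 45.2, 55.7, 45.4, 40.0 and 51.5 TPM in control and 15.0, 14.8, 30.8, 17.3 and 24.2 TPM in IF, with no overlap, as did 12.8% of tested genes in this comparison. It fell by 1.27 on the log2 scale in IF (SE 0.20, adjusted p = 0.000179, limma), by 1.45 in PBMC (adjusted p = 5.94e-05) and by 1.42 in PBMC-hCG (adjusted p = 5.55e-05). All 15 mice given RU486 lay below the control mice in Dpep1, as in 1.96% of tested genes. Ggt5, a transferase that makes leukotriene D4, had 15.1, 34.8, 15.4, 14.7 and 15.9 TPM in control and 23.4, 38.0, 42.8, 47.7 and 41.3 TPM in IF. Control replicate 2 lay within the IF range. Ggt5 was 2.08-fold higher in IF (log2 1.06, SE 0.24, adjusted p = 0.00424, limma), and its values in PBMC and PBMC-hCG, 0.59 and 0.64 above control on the log2 scale, did not pass (adjusted p of 0.101 and 0.0511).

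At the head of the pathway, Pla2g4a, the cytosolic phospholipase that releases arachidonic acid, fell by 0.49 on the log2 scale in IF (SE 0.13, adjusted p = 0.00982, limma). It had 37.6, 36.3, 33.3, 35.8 and 25.9 TPM in control and 25.3, 21.6, 31.6, 21.2 and 21.2 TPM in IF. The PBMC-hCG mice had 25.9, 38.9, 33.6, 37.0 and 27.9 TPM, which was 1.35-fold above IF (log2 0.43, SE 0.13, adjusted p = 0.0379, limma). Pla2g4a averaged 27.6 TPM in PBMC and 24.2 TPM in IF, a difference that was not called. The acyl-chain enzymes Acsl4 and Mboat7 were 1.49-fold and 1.32-fold higher in IF than in control (adjusted p of 0.000704 and 0.000146), and the lipid peroxidase Gpx4 was 1.13-fold higher (adjusted p = 0.0118). The Gpx4 call was lost after median-of-ratios scaling (adjusted p = 0.0519, limma) and with only the 2 groups fitted (0.0702).

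Receptors for other lipid and peptide signals completed the calls. Cmklr1, a receptor for chemerin and resolvins, was 3.05-fold higher in IF than in control (log2 1.61, SE 0.29, adjusted p = 0.000564, limma). It had 14.9, 32.2, 17.7, 18.3 and 22.4 TPM in control and 44.2, 61.6, 54.8, 60.2 and 104 TPM in IF, with no overlap. The PBMC-hCG mice had 55.3, 21.3, 18.7, 33.7 and 24.4 TPM, 1.13 below IF on the log2 scale (SE 0.29, adjusted p = 0.0292, limma). Ppard, a nuclear receptor for fatty acids, was 1.35-fold higher in IF than in control (adjusted p = 0.0137) and 1.33-fold lower in PBMC-hCG than in IF (adjusted p = 0.0363). The first of these Ppard calls was lost with only the 2 groups fitted (adjusted p = 0.0555, limma). In PBMC, Cmklr1 averaged 38.3 TPM beside 64.9 TPM in IF, and Ppard 27.8 TPM beside 32.1 TPM. Neither gene was called between PBMC and IF. Pparg, the nuclear receptor that products of Alox15 activate, was not called in any of the 6 comparisons.

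**Figure D4:**
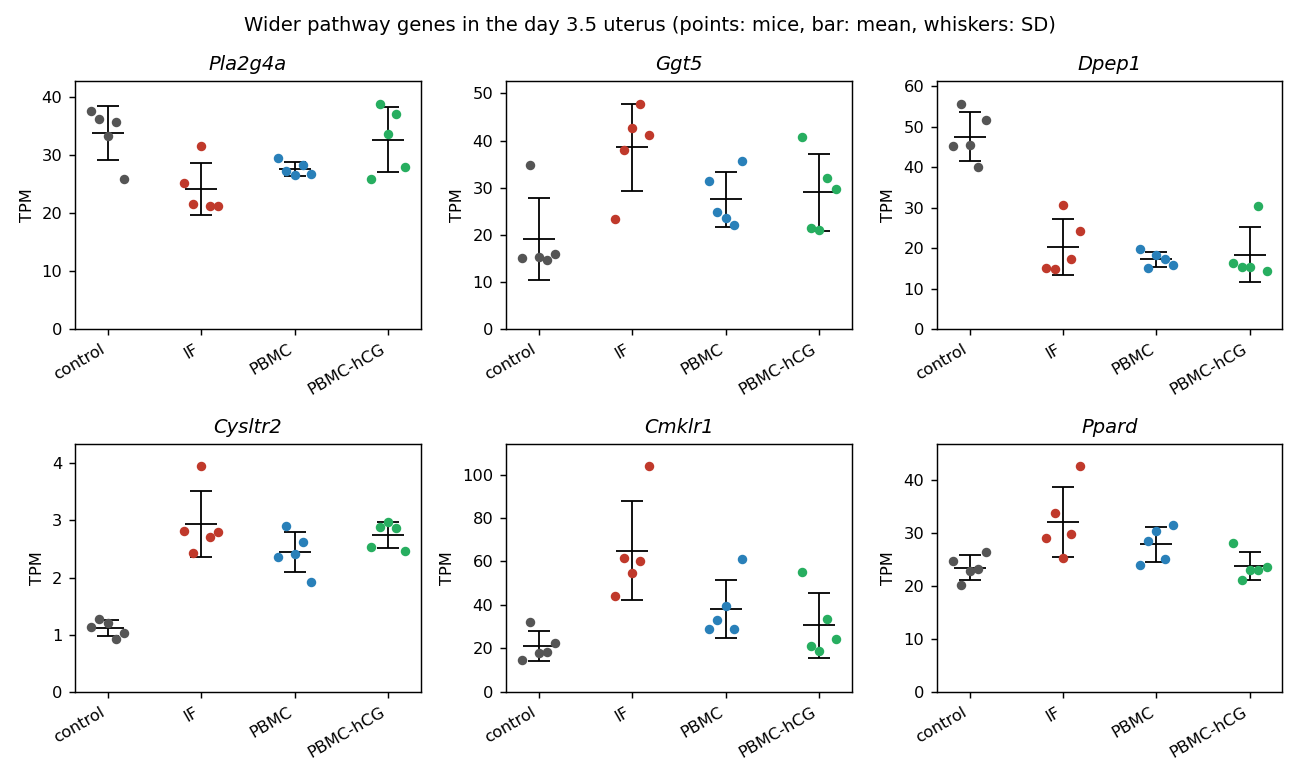
TPM of 6 wider pathway genes (vertical axes, linear from 0) in the 4 groups. Points are mice, the middle bar is the mean and the whiskers are the SD (n = 5). All 15 mice given RU486 lie above the control mice for Cysltr2 and below them for Dpep1. The PBMC and the PBMC-hCG means of Pla2g4a, Ggt5, Cysltr2, Cmklr1 and Ppard lie nearer to control than the IF mean does, and those of Dpep1 do not. None of the 6 genes was called between PBMC and IF. Only Pla2g4a, Cmklr1 and Ppard were called between PBMC-hCG and IF, each call being lost in 7 of the 10 fits without 1 mouse.

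After cell transfer, PBMC against IF called 0 of 30 genes of the wider list with limma (background 0%), with 3 at an unadjusted p under 0.05 (background 6.79%). PBMC-hCG against IF called 5 of 30 (background 13.6%), 3 higher and 2 lower of 30 beside 7.61% and 5.99% of all genes. The epoxide hydrolase Ephx2 (log2 0.63, adjusted p = 0.0314, limma) and the prostaglandin reductase Ptgr2 (log2 0.29, adjusted p = 0.0437) were higher beside Pla2g4a, and Cmklr1 and Ppard were lower. Each of these 5 calls was lost in 7 of the 10 fits that left out 1 mouse, namely those without IF replicate 2, 4 or 5 or PBMC-hCG replicate 2, 3, 4 or 5, in each of which 0 of 30 were called and 0 to 34 of all 18706 genes. PBMC-hCG against PBMC called 0 of 30 (background 0.0107%), with 1 at an unadjusted p under 0.05 (background 16.2%). PBMC against control called 6 of 30 (background 19.5%) and PBMC-hCG against control called 7 of 30 (background 31.8%), with Cysltr2, Dpep1, Mboat7 and Gpx4 among both. The Gpx4 call of PBMC-hCG against control was lost after median-of-ratios scaling (adjusted p = 0.128, limma).

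Among the remaining calls against control, in PBMC the transferase Ggt1 fell by 1.31 on the log2 scale (adjusted p = 0.0226, limma, and 0.0528 without PBMC replicate 3). Ggt1 was low, with a mean of 0.306 TPM in PBMC. Its control median was 0.611 TPM and its highest control mouse had 2.84 TPM. The size of the fall varied, with log2 differences from -1.53 to -0.59 over the other settings and -1.46 to -0.91 with 1 mouse left out. Also in PBMC, Cmklr1 was 0.85 higher (adjusted p = 0.0455, limma, and up to 0.113 without control replicate 1, 3, 4 or 5 or PBMC replicate 2, 3 or 5). In PBMC-hCG, the actin-binding partner of Alox5 encoded by Cotl1 was 0.28 higher (adjusted p = 0.0150, limma) and kept its call without each mouse in turn. The acyltransferase Lpcat3 was 0.28 higher there (adjusted p = 0.0296, and up to 0.0912 without control replicate 2 or 5 or PBMC-hCG replicate 2, 3 or 4). Ephx2 was 0.53 higher (adjusted p = 0.0235, and up to 0.0741 without control replicate 1, 4 or 5 or PBMC-hCG replicate 2).

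The genes whose log2 values followed each member most closely over the 20 mice were found among 15770 tested genes with a mean of at least 1 TPM. These are descriptions, since the mice share groups and scaling. Alox5 was followed by Ccr3, the eosinophil chemokine receptor (r = 0.91), Tmigd3 (0.90) and P2rx1 (0.89). Alox5ap was followed by the myeloid kinase Fgr (0.89) and by Coro1a (0.84). Ltb4r1 was followed by the leukocyte integrin Itgb7 (0.81), Dennd1c (0.78) and Flt3 (0.77).

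The remaining members followed other genes. Ltc4s was nearest to Fbxo42 (r = 0.93), Ubap1 (0.87) and Smurf2 (0.84), and Cysltr1 to Sh3pxd2a (0.92), Sept8 (0.88) and Sh3bp1 (0.88). Lta4h was nearest to 9530077C05Rik (0.84), Haus1 (0.83) and Nnt (0.82). Alox12 was nearest to Gm15500, Fbxo7 and Rtraf (0.79 each), and Alox15 to LOC115488833 (0.81), Gm7895 (0.76) and Tbca (0.75).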

How the data were processed

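The authors prepared stranded mRNA libraries and used Trimmomatic for trimming, HISAT2 for mapping to mm10 and StringTie for transcript assembly (versions not given in the sources used here). The values they deposited are TPM, scaled to a fixed total, so depth is unknown. The study's test on read counts cannot be run on these values. Here, log2(TPM + 0.1) of the 18706 genes above 0 TPM in all 20 libraries was fitted with limma 3.58.1 (R 4.3.3), all 4 groups together with a variance trend, and adjusted by Benjamini-Hochberg. The pseudocount of 0.1 lowers fold changes of low genes. Groups came from the sample labels, and mice of a group are separate animals. The members and gene lists were chosen with earlier results of these data known. The text names the 8 members, wider pathway genes with an adjusted p under 0.05, and the 3 nearest genes by Pearson correlation, of which 1 is not reported here. Genes below the filter, the promoter windows, and the marker lists by range are also named. Overlapping genes in the RefSeq annotation were Gm12312 (Alox15), Gm38880 (Alox5), Gm40191 (Alox12), and Gm5127 and Gm24622 (Cysltr1), and whether counting used strand is not given in the sources used here. Fits were tested on simulated data. Alternatives were pseudocounts of 1 and 0.01, other filters, quantile and median-of-ratios scaling, a replicate block, fits of 2 groups, and each mouse left out. Mice given hCG medium without cells were not analysed here. Figures were drawn with matplotlib 3.10.9 in Python 3.11.15.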

Additional observations from a re-analysis of the deposited data

Results flagged for a closer look

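In Cysltr1, control replicate 2 (1.84 TPM) lay apart from the other 4 control mice (2.93 to 3.46 TPM). Taken on the log2 scale and not on TPM, its gap to the nearest of them was 0.731 of the group's range. This share was above the critical value of 0.71 for 5 samples. It was the 1 such case among 32 groups of members tested, where chance gives about 1 in 20.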

How the results depend on the processing

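Of the members called between IF and control (1), 0 remained without the filter on low values, with the replicate block and with only the 2 groups fitted, and 2 were called after quantile normalization. For PBMC-hCG against IF (1) there were 2 with a pseudocount of 1 and with a mean of at least 1 TPM, Lta4h being the added one, and after quantile normalization Lta4h took the place of Alox12. The wider list (5) gave 1 without the filter. For PBMC-hCG against control (2) there was 1 after quantile normalization, with the replicate block and with 2 groups, and 0 after median-of-ratios scaling. The share of higher calls moved with scaling: members between IF and control were 1 higher and 1 lower after quantile normalization and 0 higher and 1 lower after median-of-ratios scaling, the lower one being Lta4h both times, and the wider list was 6 higher and 3 lower (7 and 2 in the main result) after the latter. For PBMC-hCG against control the wider list was 6 higher and 3 lower after quantile normalization and 4 and 3 after median-of-ratios scaling (6 and 1). The cause was not tested.

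Signs of small differences reversed with scaling. For PBMC-hCG against IF, Alox5ap was -0.039 (median-of-ratios), Ltc4s -0.0069 and Cysltr1 -0.060 (quantile). For PBMC-hCG against control, Alox5 was -0.046 (quantile) and -0.039 (median-of-ratios), Lta4h -0.040 (median-of-ratios), and Ltb4r1 -0.11 (quantile) and -0.047 (median-of-ratios). None of these differences was called.

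With each mouse left out in turn, the number of members called ran from 0 to 1 for IF against control, 0 to 1 for PBMC against control, 0 to 2 for PBMC-hCG against IF and 1 to 2 for PBMC-hCG against control. The wider list ran from 9 to 11, 4 to 8, 0 to 7 and 6 to 8 in the same order. Log2 differences that changed sign were those of Alox15 (IF against control -0.29 to 0.42, PBMC against IF -0.32 to 0.48, PBMC against control -0.33 to 0.54), Alox5 (PBMC against IF -0.12 to 0.078, PBMC-hCG against IF -0.26 to 0.054, PBMC-hCG against PBMC -0.25 to 0.066, PBMC-hCG against control -0.080 to 0.24), Alox5ap (PBMC against IF -0.020 to 0.092, PBMC-hCG against IF -0.044 to 0.073, PBMC-hCG against PBMC -0.085 to 0.042), Cysltr1 (PBMC against IF -0.043 to 0.17, PBMC-hCG against IF -0.088 to 0.13, PBMC-hCG against PBMC -0.17 to 0.015), Ltb4r1 (PBMC against IF -0.041 to 0.22, PBMC-hCG against control -0.14 to 0.21), Ltc4s (PBMC against IF -0.13 to 0.039, PBMC-hCG against IF -0.040 to 0.13) and Lta4h (PBMC against control -0.057 to 0.0078). None was called. Same-numbered mice did not pair (correlations of deviations -0.247 to 0.457), so the replicate block uses shared numbers only. With it, the Ltc4s call between IF and control had an adjusted p of 0.0557 and the Alox12 call of PBMC-hCG against control 0.0541. All members passed the filter, so the pseudocount alternative for members below it gave no value. Depth is unknown, and 5 mice a group limit the precision.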
